A study of Mus musculus with 2 samples.

Results

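The broad open stretches described here are 1564 regions of the mouse genome that were accessible to DNase I over at least 600 bp in 1 of 2 libraries of calf muscle. The samples were gastrocnemius, a hindlimb muscle, of female mice of strain B6CASTF1/J, the first-generation hybrid of a laboratory strain and a wild-derived one. The animals were 10 days old and untreated as far as the labels say, and the labels note 3 females for each library. Both libraries, biological replicates 1 and 2, belonged to a single group, so no condition or genotype was compared and all positions refer to the mm10 genome of the reference strain. The stretches were chosen by measured values: in the shorter of the deposited peak lists of replicate 2, overlapping peaks were joined and joined intervals of 600 bp or wider were kept. That left 1564 of 25464 joined intervals, or 6.14%, made from the 26804 peaks of that list and covering 1.19 Mb of 6.72 Mb. Width and height in replicate 2, and whatever comes from the same peaks, are therefore descriptions, and regions of 1 library are not replicates, so no test was made on them.

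DNase I cuts DNA where nucleosomes are loosened or absent, and sites of dense cutting mark promoters, enhancers and insulators. Inside such sites, a bound protein can shield a few bases and leave a footprint. Promoters in CpG islands, stretches of DNA that keep many CpG dinucleotides because they are rarely methylated, tend to lack a stable nucleosome in many tissues. Promoters and enhancers of muscle genes such as those of the sarcomere are often poor in CpG and open mainly in muscle cells. Hox genes lie in clusters and are kept open or closed according to position along the body axis and the limb.

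The libraries stood apart, which touches each comparison below. Replicate 1 had 113690 joined intervals in its shorter list, against 25464 in replicate 2, and the spacing of its height values was finer, 0.00597 against 0.0107 in replicate 2. Read totals are not used here. A joined interval lay at most 1 kb from an annotated transcription start (TSS) of 8 of 35 sarcomere genes in replicate 2 and 18 in replicate 1, of 15 and 19 of 23 myogenic regulators, and of 0 of 13 leukocyte genes in both. For 15 neuronal genes the counts were 6 in replicate 2 and 15 in replicate 1, and for 11 Hoxa genes 6 and 3. Over all 21911 protein-coding genes they were 11270 in replicate 2 and 14613 in replicate 1, so replicate 1 had more in general. The part of these differences in the results below was not tested, and the values do not settle which library better represents the labelled muscle. In whole tissue, fewer cells of a type and less open chromatin per cell cannot be told apart.

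Several kinds of broad stretch recur in what follows, and the middle 300 bp of 1 member of each shows how they differ in sequence, with each CpG in capitals. They are the tallest member at a promoter, at Ddx5 and Cep95 (chr11:106788721-106789020), the widest member away from promoters, in an intron of Fgf18 (chr11:33131841-33132140), the widest in the Hoxa cluster, at Hoxa10 (chr6:52233311-52233610), and the widest within 1 kb of a TSS of a sarcomere gene, at Myl12a (chr17:71002341-71002640). All are given 5′ to 3′ on the plus strand of GRCm38.
Ddx5 and Cep95: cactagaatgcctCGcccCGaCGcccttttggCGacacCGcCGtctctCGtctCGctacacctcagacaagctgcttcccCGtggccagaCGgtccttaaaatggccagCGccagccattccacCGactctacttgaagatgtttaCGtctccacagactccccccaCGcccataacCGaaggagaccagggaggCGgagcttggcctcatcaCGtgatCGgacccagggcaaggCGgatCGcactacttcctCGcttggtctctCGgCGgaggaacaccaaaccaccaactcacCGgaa
Fgf18: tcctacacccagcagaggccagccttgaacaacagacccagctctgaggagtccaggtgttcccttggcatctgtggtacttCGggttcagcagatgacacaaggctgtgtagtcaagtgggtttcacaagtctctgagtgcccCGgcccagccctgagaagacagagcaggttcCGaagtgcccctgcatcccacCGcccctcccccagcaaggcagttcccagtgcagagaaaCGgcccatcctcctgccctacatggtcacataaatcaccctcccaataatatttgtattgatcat
Hoxa10: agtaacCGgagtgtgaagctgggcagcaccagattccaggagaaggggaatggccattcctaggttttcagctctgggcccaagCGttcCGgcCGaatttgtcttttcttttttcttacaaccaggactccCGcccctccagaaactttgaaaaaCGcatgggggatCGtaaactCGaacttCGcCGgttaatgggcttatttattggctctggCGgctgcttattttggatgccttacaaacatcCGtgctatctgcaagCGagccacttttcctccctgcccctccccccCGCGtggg
Myl12a: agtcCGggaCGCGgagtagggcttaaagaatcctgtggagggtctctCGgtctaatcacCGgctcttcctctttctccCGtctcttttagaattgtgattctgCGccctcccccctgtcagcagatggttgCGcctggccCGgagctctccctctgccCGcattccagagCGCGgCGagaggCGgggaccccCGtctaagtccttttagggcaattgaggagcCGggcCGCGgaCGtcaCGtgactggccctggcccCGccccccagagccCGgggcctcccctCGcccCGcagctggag
The Ddx5 window held 24 CpGs, 3 footprints in replicate 2 and 5 in replicate 1, and peaks of replicate 1 covered 200 of its 300 bp. The Myl12a window also held 24 CpGs, with 7 footprints in replicate 2 and 6 in replicate 1, and 180 bp in replicate 1 peaks. The Hoxa10 window held 15 CpGs and 6 footprints in replicate 2, but no footprint and no peak base in replicate 1. The Fgf18 window held 5 CpGs and had neither a footprint nor a replicate 1 peak base.

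The first question was what the width threshold picked out. Nearly all members held a single deposited peak that was already 600 bp or wider. That was so in 1492 of the 1564, and in 72 the width came from joining alone. By number of deposited peaks, 634 members came from 1, 817 from 2, 91 from 3, 19 from 4, 1 from 5 and 2 from 6. Their median width was 700 bp and the widest reached 2420 bp. Many peak edges lay on a 20 bp grid, and the threshold cut through a continuous distribution. The 200 intervals just outside it, from 580 to under 600 bp wide, had a median height of 1.78, and 87.5% of them lay at a promoter and 92.0% overlapped a replicate 1 peak. The 182 members just inside, 600 to 619 bp wide, had a median height of 1.85, with 86.3% at a promoter and 92.9% on a replicate 1 peak.

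Broad stretches were mostly in the upper part of the height range but seldom among the very tallest sites. Their median depth-normalized height was 1.88, between 0.289 and 5.42, where all joined intervals had a median of 1.47 and a maximum of 89.6, and it stood at percentile 67.4 of all heights. Of the tallest 1% of joined intervals, 3 of 254 were members, and 177 intervals were taller than every member, with a median width of 220 bp. With all joined intervals put into 10 classes of about equal size by height, the share of broad ones was 2.10% in the lowest class, 11.5% in the eighth and 5.39% in the highest. Across the 1564 members width and height had a Spearman correlation of -0.02, a description of regions that share 1 library.

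**Figure D1:**
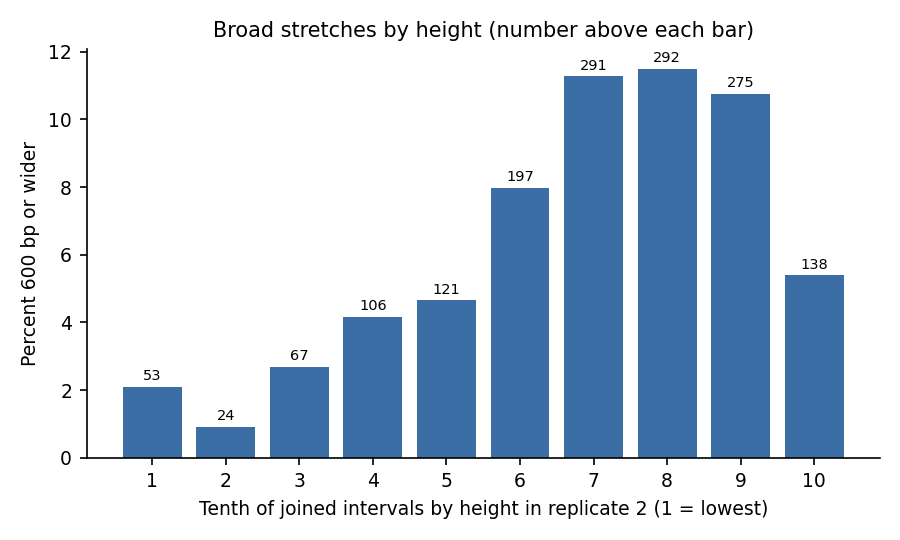
Percent of joined intervals of replicate 2 that are 600 bp or wider, in 10 classes of about equal size by height; the number of broad stretches stands above each bar. The share is highest in the eighth class at 11.5% and is 5.39% in the tallest.

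Broad stretches lay at promoters, and mostly across the TSS itself. Of the 1564, 1391 lay within 1 kb of a TSS of a protein-coding gene, or 88.9% (Wilson 95% interval 87.3 to 90.4, for counting error only), where the share over all joined intervals was 63.5%. A wider interval reaches a TSS more easily, so the same was counted from the centre of each interval, and the shares were 87.3% and 62.7%. A TSS lay inside 1193 members, 76.3%, against 33.6% of all joined intervals, a contrast that is not corrected for width. Of the 173 members away from promoters, 112 were intergenic, 31 were in introns and 30 in exons. Promoters of 2 or more genes made up 206 of the 1391, or 14.8%, against 12.0% of narrower promoter intervals, also without correction for width.

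Around the gene start the stretches leaned into the gene. Among 1030 promoter members with a single gene, the gene start was inside 734, which reached a median of 299.5 bp upstream and 434.5 bp downstream, and 479 of the 734 reached farther downstream. The share of the 1030 whose broad stretch covered a position was highest 200 bp downstream of the start, at 75.2%. The share with any replicate 1 peak was highest 50 bp upstream, at 76.6%, fell to 25.2% at 200 bp downstream and came back to 34.8% at 600 bp. The curve of replicate 1 thus had a high rise before the gene start and a lower one behind it. Each of the 1030 adds 1 unbroken interval of at least 600 bp to the replicate 2 curve. Its single broad rise therefore reflects the selection rule and is no contrast with replicate 1.

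**Figure D2:**
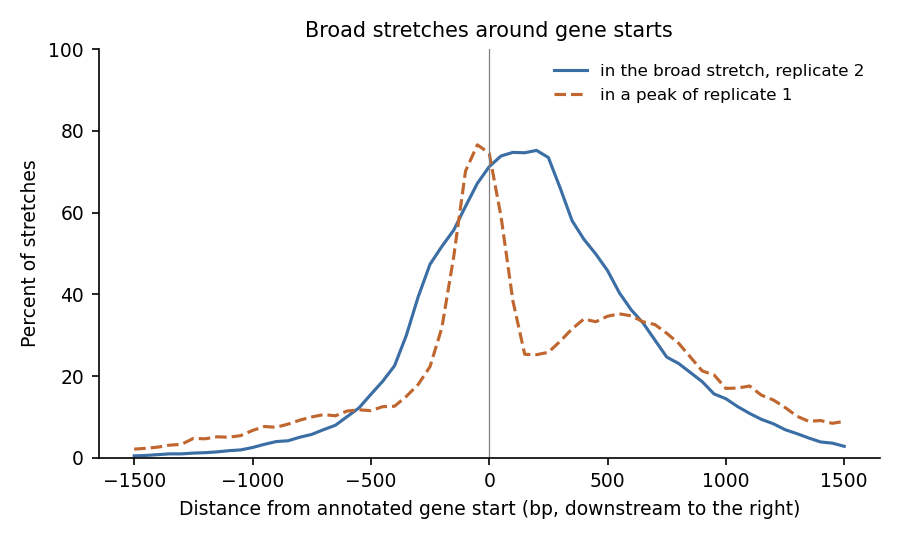
Percent of 1030 single-gene promoter stretches whose broad stretch of replicate 2 (solid) or a replicate 1 peak (dashed) covers each position, in bp from the annotated gene start. The solid curve is highest at 200 bp, at 75.2%, and the dashed one at -50 bp, at 76.6%, with a lower second rise downstream.

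The tallest 10 members lay at promoters with 1 exception, among them those of an RNA helicase and of chromatin proteins. The tallest, 620 bp at chr11:106788561-106789180, spans the start of Ddx5, an RNA helicase that is also a coactivator of MyoD, beside Cep95. Its height was 5.42 in replicate 2, it held 10 footprints there and 12 in replicate 1, and 3 peaks of replicate 1 covered 400 bp of it. Among the others, Zfp768, a zinc finger gene, had a height of 5.38. Hip1, a clathrin adaptor, was at 4.86, Jarid2, a cofactor of the Polycomb complex, at 4.68, and Cand1, which exchanges cullin substrate receptors, at 4.65. Cblb, a ubiquitin ligase, was at 4.56 and 1700064H15Rik at 4.49. The stretch at Brd2, a bromodomain protein that reads acetylated histones, was at 4.21. It also lies at a start of H2-DMa, which is listed as its nearest gene. The 1 member of the tallest 10 away from promoters was intergenic, 14429 bp from the nearest TSS, that of Zfp395, with a height of 4.37. All 10 carried at least 1 replicate 1 peak and had an FDR under 0.001 in replicate 1 at every base.

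The widest members were a mixed set, and 4 of the 10 had no replicate 1 peak at all, against 4.80% of all members. Width beyond the threshold did not go with this more generally. Members of 800 bp or wider were overlapped in 94.2%, and all members in 95.2%. The widest was 2420 bp at Plec, which encodes plectin, the linker that ties the cytoskeleton to the sarcomere and the cell membrane (chr15:76204241-76206660). It had a height of 1.13 and 14 footprints in replicate 2, and 0 peaks and 1 footprint in replicate 1. Myc, the growth-promoting transcription factor, came next with 2260 bp and a height of 1.51, and 4 replicate 1 peaks covered 1140 bp of it. The third was the Fgf18 intron, 2060 bp wide at a height of only 0.375, with 0 footprints in replicate 2. Klf12, a repressor of the Krüppel-like family, had 1820 bp, and Hoxa10, a patterning gene of the posterior limb, 1760 bp at a height of 2.18. Of the others, St3gal1, a sialyltransferase, had 1741 bp, Zfp503 1737 bp and Ppp1r9b, the actin-binding protein spinophilin, 1715 bp. Actn1, the non-muscle alpha-actinin, had 1641 bp and Smarca2, an ATPase of the SWI/SNF remodelling complex, 1640 bp.

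Away from promoters the widest members after Fgf18 and Zfp503 were at 1500 bp, 152926 bp from Smim15, and at 1180 bp, 23006 bp from Azin1. The first held 15 footprints in replicate 2 and 20 in replicate 1, the second 24 and 21. A second stretch beside Zfp503, 1151 bp, held 10 footprints in replicate 2 and 0 in replicate 1. Nfia, a nuclear factor I gene, had an intronic stretch of 1126 bp with a height of 1.93, and Arvcf, a catenin gene, one of 1120 bp with a height of 0.654. Stretches of 1077, 1060 and 1060 bp lay nearest to Foxp4, Kcnrg and Pcdh7.

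The sequence of broad stretches was rich in G, C and CpG. Median GC in the central 600 bp was 66.5%, against 59.0% over all joined intervals, and the ratio of observed to expected CpG was 0.821 against 0.662. A ratio above 0.6 was found in 86.6% of members (84.8 to 88.2) and 56.3% of all joined intervals. Both places showed the difference. Among promoter intervals the share was 92.1% for broad and 79.3% for narrower ones, and away from promoters 42.2% and 13.9%. The 600 bp window lies inside every member but reaches past the edges of narrower intervals. Their median widths were 260 bp at promoters and 160 bp elsewhere, so flanking sequence is part of their values.

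Motif letters followed the same line. In the central 300 bp, searched on both strands, the GC box GGGCGG was present in 66.9% of members against 45.9% of all joined intervals, and the NRF1 consensus in 8.50% against 5.14%. The ETS letters CCGGAAG were in 12.7% against 9.94%, but in promoters alone in 13.4% of broad and 13.5% of narrower intervals. The CTCF consensus, the mark of insulators, was in 0.831% of members and 7.79% of all joined intervals, and away from promoters in 1.16% and, of narrower intervals, 17.6%. Other letters were found less often: CANNTG, the E-box of MyoD and its relatives, which also contains CACGTG, was in 55.8% against 67.6%, M-CAT (CATTCC) in 8.12% against 12.5% and AP-1 (TGANTCA) in 2.81% against 5.16%. For the rest the members' share and that of all joined intervals were 0.320% and 0.295% for MEF2, 1.34% and 1.10% for CArG, 2.69% and 3.27% for MEF3 (TCAGGTT), 27.0% and 28.6% for CCAAT, 2.17% and 1.60% for CRE (TGACGTCA), 4.03% and 3.49% for YY1 (AAGATGGC) and 8.63% and 7.41% for CACGTG. Windows of fixed length reach past the edges of narrower intervals, and a match is a run of letters and not a bound site. Members are at least 600 bp wide, so the 300 bp window covers only part of each. Letters in the rest of a member were not counted.

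The second question was what replicate 1 showed at these places. Nearly all members had a replicate 1 peak, taller than in replicate 2 but covering less of the stretch. A replicate 1 peak overlapped 1489 of 1564 by at least 1 bp, or 95.2% (94.0 to 96.2), where the share over all joined intervals was 79.9%. At the middle 150 bp, which does not favour wide intervals, the shares were 76.2% and 76.7%, so the higher overlap was not seen there. By at least 1 bp, promoter members were overlapped in 97.6%, against 80.8% of narrower promoter intervals. Away from promoters those shares were 76.3% of members and 75.6% of narrower intervals. At the middle 150 bp the shares at promoters were close, 78.2% of members and 77.4% of narrower intervals. Away from promoters that share was lower in members, 59.5% (52.1 to 66.6), than in narrower intervals, 75.6%. The highest replicate 1 peak had a median height of 7.92 in the 1489, against 4.29 over all overlapped joined intervals, and it was above the replicate 2 height in 1342, or 90.1%, where the share over all overlapped joined intervals was 87.4%. Heights of the libraries had a Spearman correlation of 0.58 across the 1489 regions.

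Inside the stretches replicate 1 had narrower peaks, most often a single one. Of the members 833 held 1 joined replicate 1 interval, 580 held 2 and 76 held 3 or more, and the widest of them had a median width of 260 bp. So 41.9% held 2 or more, against 7.49% of all joined intervals. Wider intervals have room for more peaks, and the median widths were 700 and 220 bp, so this contrast is not corrected for width. Replicate 1 peaks covered 43.8% of the bases of broad stretches, against 52.0% over all joined intervals, and at least 50% of the stretch in 37.2% and 58.0%. Low FDR in replicate 1 reached past its peaks. Of all bases of members, those in peaks included, 91.2% had an FDR under 0.001 in replicate 1, against 89.4% over all joined intervals. At promoters the shares were 94.4% for members and 94.2% for narrower intervals, and elsewhere 64.6% and 76.3%. On a replicate 1 interval of 600 bp or wider lay 72 members, or 4.60%, against 1.63% of all joined intervals. Replicate 1 itself had 608 such intervals among 113690, or 0.535%, of which 506 were at promoters and 315 met no joined interval of replicate 2 at all.

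**Figure D3:**
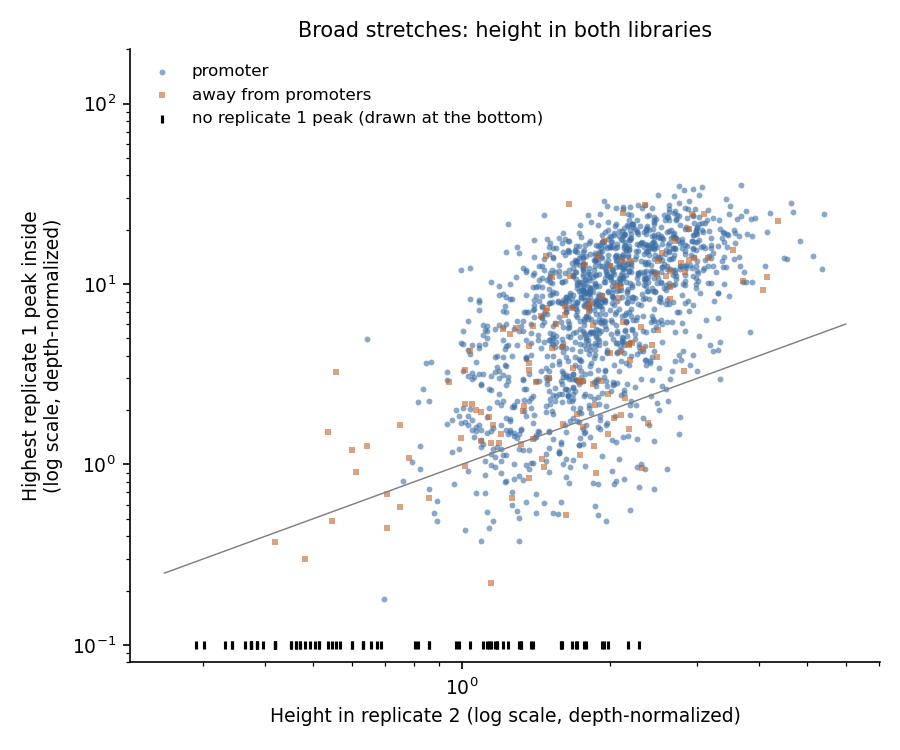
Height of each of 1564 broad stretches in replicate 2 (x, log scale) against the highest replicate 1 peak inside it (y, log scale); the line marks equal values and ticks at the bottom are the 75 without a replicate 1 peak. Of the 1489 with one, 1342 lie above the line.

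Footprints were not denser in broad stretches than elsewhere, and their number followed height. Replicate 2 had 9.97 footprints per kb in members (exact Poisson interval 9.79 to 10.1) and 10.9 over all joined intervals, and replicate 1 had 10.1 and 11.7 at the same places. Promoter members had 10.2 per kb in replicate 2 and 10.4 in replicate 1, members away from promoters 8.18 and 7.44. With the members put into 4 sets of 391 by height, from low to high, the values in replicate 2 were 6.32, 9.51, 10.8 and 13.3. Replicate 1, which had no part in choosing or ranking members, had 6.58, 9.65, 10.99 and 13.3. No footprint was found in 51 members in replicate 2 and in 86 in replicate 1, or 3.26% and 5.50%, against 18.6% and 22.3% of all joined intervals, most of which are far shorter. The most footprints per kb were in an intronic stretch of Adcy7, an adenylyl cyclase gene, with 17 in 600 bp, followed by Cand1 with 16, and by Frmd6, Rcor1, a corepressor gene, and Ccdc90b with 15 each.

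**Figure D4:**
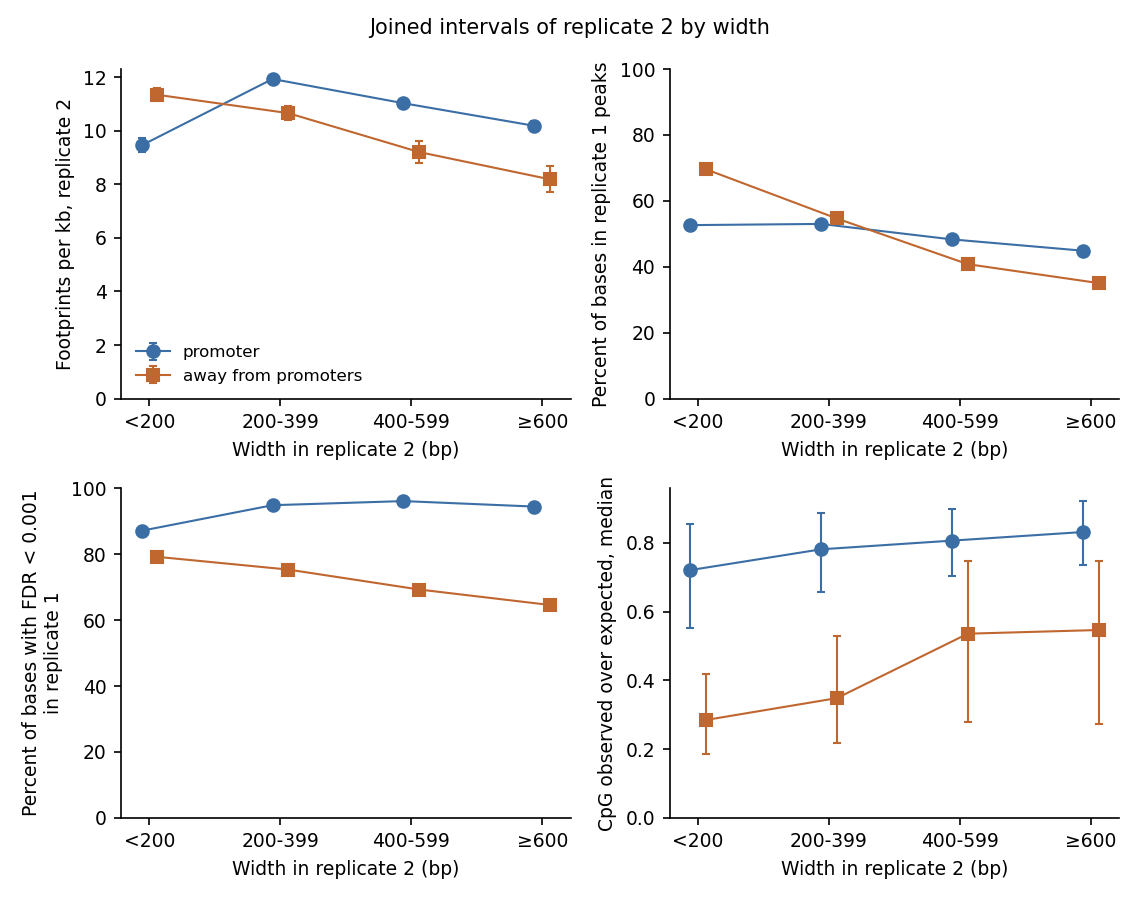
Joined intervals of replicate 2 by width, at promoters (circles) and away from them (squares): footprints per kb in replicate 2 with exact Poisson intervals, percent of bases in replicate 1 peaks and with FDR under 0.001 in replicate 1, and median CpG ratio with quartiles. In the widest class footprints per kb are 10.2 at promoters and 8.18 elsewhere, and the CpG ratios 0.831 and 0.546.

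The third question was which genes carried a broad stretch at the promoter. Of 21911 protein-coding genes 1542 did, or 7.04%, which is 13.7% of the 11270 genes with any joined interval of replicate 2 at the promoter. The counts for gene lists below are descriptions, no difference between a list and all genes was tested, and several lists lay close to these shares. Of the 23 myogenic regulators 6 had one, out of 15 with any interval, and of 16 circadian genes 6 of 14. Of 19 immediate-early genes, the early targets of growth signals, 5 of 17 had one. Near the share over all genes with an interval were housekeeping genes, with 2 of 15, sarcomere genes, with 1 of 8, and genes of muscle metabolism, with 1 of 12. None of 24 genes of excitation-contraction coupling had one, but only 4 of the 24 had any interval, too few to compare.

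**Figure D5:**
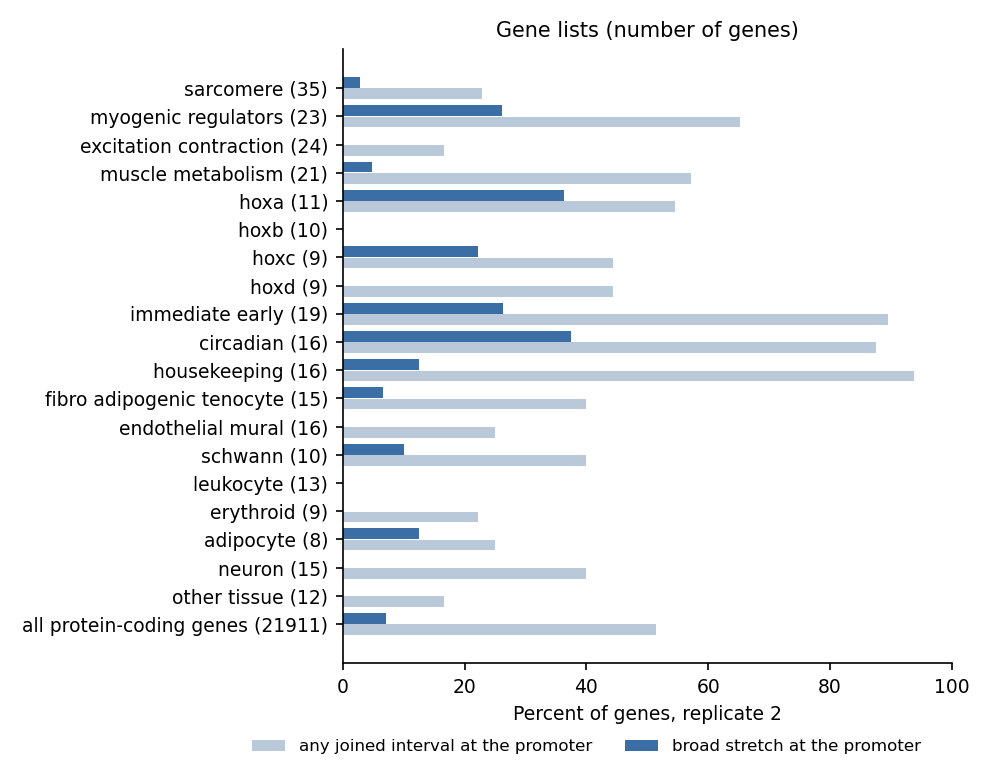
Percent of the genes of each list with a broad stretch (dark) and with any joined interval (light) of replicate 2 within 1 kb of a TSS; the number of genes is in brackets. Over all 21911 protein-coding genes the dark bar stands at 7.04%.

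Among myogenic regulators, Nfix, a nuclear factor I gene of the fetal muscle programme, had 960 bp at a height of 0.976 with 9 footprints in replicate 2, and replicate 1 had no peak, no footprint and no base with an FDR of 0.05 or less. Eya4, a transcriptional coactivator, had 1100 bp and 9 footprints, with 2 replicate 1 peaks over 485 bp and 8 footprints. Sox6, a repressor of slow-fibre genes, had 3 separate stretches at its promoters, of 620, 840 and 700 bp, with heights of 1.27, 1.61 and 1.28, and replicate 1 peaks there reached 0.597, 1.00 and 1.01. Six4 had 660 bp at a height of 1.33, with replicate 1 peaks over 640 bp but a height of only 0.823 there. Srf, the serum response factor, had 613 bp at 1.68, and 12.2 in replicate 1. The last 2 are outside the naming rule and were named after their values were seen.

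Stretches at clock genes were marked in both libraries, as were 97.6% of all promoter members. Bhlhe41, a repressor of the clock, had 900 bp at a height of 2.17 and a second of 600 bp beside it. Per3 had 840 bp at 2.17, Clock 780 bp at 1.65 and Bhlhe40 660 bp at 2.46, and all of these lay on at least 1 replicate 1 peak. Per2 and Nr1d2 had the others, of 600 and 640 bp, with heights of 3.02 and 3.38 in replicate 2 and 21.4 and 18.1 in replicate 1; both are outside the naming rule. Of the immediate-early genes, Fosl2 had 1455 bp at 2.39, Klf4 1307 bp at 1.09 and Jun, a subunit of AP-1, 780 bp at 2.83. Klf6, also outside that rule, had 680 bp at 2.78, with 21.3 in replicate 1.

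The lists of muscle structure and metabolism gave 1 gene each. The sarcomere member was Myom1, myomesin, but its stretch of 620 bp spans a start of Myl12a, a regulatory light chain of non-muscle myosin, and is within 1 kb of Myl12b and of 1 annotated start of Myom1. It had a height of 2.95 and 13 footprints, with 10 in replicate 1. Pygm, the muscle glycogen phosphorylase, had 860 bp 446 bp from a start, at a height of 0.858, without a footprint in either library and without a replicate 1 peak.

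Lists of other cell types gave at most 1 gene each, against the 7.04% of all genes and 13.7% of genes with an interval. Col12a1, a fibril-associated collagen of tendon and fascia, was 1 of 15 genes of fibro-adipogenic cells and tenocytes, Pmp22, a myelin protein, 1 of 10 Schwann cell genes, and Pparg, the regulator of fat cells, 1 of 8 adipocyte genes. The genes with any joined interval of replicate 2 numbered 6, 4 and 2 in these lists. They had 780, 740 and 840 bp at heights of 1.31, 1.97 and 1.03, each with 2 replicate 1 peaks. Of the housekeeping list, Hprt had 793 bp at 0.868 and Sdha 600 bp at 2.55, which it shares with Ccdc127. The lists of endothelial and mural cells (16 genes), leukocytes (13), erythroid cells (9), neurons (15) and other tissues (12) had none. In these lists 4, 0, 2, 6 and 2 genes had any joined interval of replicate 2.

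The Hoxa cluster held the largest group of broad stretches, and replicate 1 peaks covered very little of these stretches. When members within 50 kb of each other were grouped, 1278 stood alone, 110 groups had 2, 14 had 3, 3 had 4 and 2 had 6. The first of the 2 largest ran from Hoxa3 to Hoxa11 (chr6:52211261-52245740), with 6391 bp in 6 stretches, 61 footprints in replicate 2 and 8 in replicate 1. Replicate 1 peaks covered 2.50% of those bases, all of it in the stretch near Hoxa3, which had a peak of 2.40 over 160 bp. That stretch measured 960 bp and had a height of 1.64 in replicate 2, with 6 footprints there and 5 in replicate 1.

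The posterior Hoxa stretches had no replicate 1 peak. Hoxa9 had 1240 bp at a height of 1.67 with 12 footprints in replicate 2 and 0 in replicate 1. At Hoxa10, 1 stretch of 1760 bp had a height of 2.18 with 20 and 0 footprints, and another of 860 bp had 1.94 with 10 and 3. At Hoxa11 a promoter stretch of 691 bp had a height of 1.39 with 9 and 0, and an exonic one of 880 bp had 0.515 with 4 and 0. Hoxc10, another posterior gene, had 1154 bp at a height of 1.70 with 10 footprints and 0, and the annotated start that puts Hoxc5 within 1 kb belongs to the same stretch. Hoxb and Hoxd had no broad stretch. Over the whole clusters replicate 2 had 34 joined intervals in Hoxa and 0 in Hoxb, and replicate 1 had 6 in each. At the promoters of the 11 Hoxa genes replicate 2 had a joined interval at 6 and replicate 1 at 3.

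Other groups were also nearly without replicate 1 peaks. The second group of 6, nearest to Sik1, a kinase of the AMPK family (chr17:31877261-31909239), had no promoter, low heights of 0.343 to 0.858, 26 footprints in replicate 2 and 5 in replicate 1, and a replicate 1 peak at 1 of its 6 stretches. Rapgef1, a guanine nucleotide exchange factor gene, had 4 intronic stretches at heights of 0.343 to 0.450 with 1 footprint among them and no replicate 1 peak. Ndst1, which modifies heparan sulfate, had 4 at 0.60 to 0.858 with 9 footprints in replicate 2 and 0 in replicate 1. Emc10 and Fam71e1 had 3 at 0.375 to 0.482 with 1 footprint and 0.

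Other groups were marked in both libraries. Pcdh7, a protocadherin gene, had 4 stretches in 3734 bp at heights of 0.965 to 1.27, with 29 footprints in replicate 2 and 19 in replicate 1, and replicate 1 peaks covered 60.0% of them. Hivep2, a zinc finger gene, had 3 with 77.0% covered, Tnrc18 3 with 44.3% and Nfic, a nuclear factor I gene, 3 with 44.8%. The promoters of Snrnp200, of Ciao1 and of Stard7 made up a group of 3 over neighbouring genes, with heights of 1.77 to 2.26 and 35.9% covered.

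The 75 members without a replicate 1 peak were of several kinds. In 47 no base had an FDR of 0.05 or less in replicate 1, in 10 over 95% of the bases did although no peak was listed, and 18 lay between. Of all joined intervals 1875 had no such base, or 7.36%, against 3.01% of broad stretches. The 47 had a median height of 0.493, 12 of them lay at promoters, their median CpG ratio was 0.227, and they held 3.87 footprints per kb in replicate 2 with none in 16. The other 1517 members had a median height of 1.89, a CpG ratio of 0.824 and 10.2 footprints per kb, with 1379 at promoters. The narrower intervals without such a base had a median height of 0.472 and a CpG ratio of 0.227, close to the 47. These values are thus not particular to width, though the CpG window reaches past the edges of the narrower intervals.

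By height the 75 were led by Ahnak, a scaffold protein gene, at 2.28 with 8 footprints in replicate 2 and 1 in replicate 1, and by Hoxa10. Rbpj, the transcription factor of Notch signalling, followed at 1.98, Adss at 1.93 and Asap1 at 1.79. These last 3 had an FDR under 0.001 at every base in replicate 1, and Rbpj held 4 footprints there against 1 in replicate 2. The second Zfp503 stretch (1.77), Tbx18, a T-box gene (1.72), Hoxc10 (1.70) and Hoxa9 (1.67) completed the 10 tallest.

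The next 3 genes, with stretches among the 47, were chosen after their values were seen and stand for no group. Flnc, the muscle filamin, had 2 exonic stretches of 760 and 660 bp at heights of 0.568 and 0.472, with 0 and 2 footprints. A stretch of 740 bp nearest to Six5 had 0.536 and 0 footprints. Scx, a tendon transcription factor, was nearest to an intronic stretch of 658 bp at 0.986 with 4 footprints. Of the 47, 3 lay within 50 kb of a TSS of a sarcomere gene, 4 of a Hoxa gene and 2 of a myogenic regulator. Over all 1564 members those counts were 12, 6 and 9, or 0.767%, 0.384% and 0.575%, against 0.672%, 0.134% and 0.397% of all joined intervals.

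Members of low and of high CpG content differed in the same way. The 94 members with a ratio below 0.4 had a median height of 0.767 and 5.29 footprints per kb, 22 were at promoters, and 49 had no replicate 1 peak, or 52.1%. The 1354 with a ratio above 0.6 had a median height of 1.93 and 10.4 footprints per kb, and 17 had no replicate 1 peak, or 1.26%. Over all joined intervals that share was 20.1%, and it was not split by CpG content. As 1281 of the 1354 were at promoters, CpG content, place and height cannot be told apart here. Replicate 1 peaks covered 21.5% of the bases of the first set and 45.5% of the second.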

How the data were processed

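DNase-seq of 2 libraries was used as deposited, on mm10. Per the labels' file notes, peaks, FDR intervals and footprints were each made by the authors from the filtered alignments of 1 library, and the libraries were not pooled. The peak height is a signal normalized to read depth by the authors. Each deposited FDR interval carries the authors' corrected p-value, which never exceeds 0.05. The deposited footprint files hold the score 0.01 in every row, so only positions were used. The aligner and the callers, with versions and settings, were not given in the sources used here, and the depth is unknown. The longer peak lists (46786 peaks in replicate 2 and 189128 in replicate 1) served as alternatives.

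Peaks overlapping by at least 1 bp were joined. The height of a stretch is that of its highest peak. A promoter is within 1 kb of any TSS of a protein-coding gene (GENCODE M21) from the nearest edge. Footprints were counted by their centre. The GRCm38.p6 sequence gave CpG ratios in the central 600 bp and motif letters in the central 300 bp. The code was tested on simulated data and against bedtools 2.31.1. Tables were made with pandas 2.3.3, numpy 2.4.6 and scipy 1.17.1 under Python 3.11.15, and plots with matplotlib 3.10.9. The members and the 19 gene lists (291 entries, all found) were chosen with earlier results of these data known. Named members are the 10 tallest, the 10 widest, the 10 widest away from promoters, the 10 tallest without a replicate 1 peak, up to 4 genes per list by width and all Hox genes, the 10 largest groups and the 5 with most footprints per kb. Some members that this rule names are not reported here. No test was made, since there is 1 group and regions are not replicates.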

Additional observations from a re-analysis of the deposited data

How the results depend on the processing

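The number of broad stretches depended most on the rule. A minimum of 500 bp gave 2841, 800 bp gave 467, joining peaks within 100 bp gave 2407, and the longer list gave 2792. Without joining, 1571 single peaks were broad. The rule without replicate 2, on replicate 1, gave 608, with 83.2% at promoters. The promoter share was 91.4% at 800 bp, 85.1% in the longer list, 86.8% and 90.9% with promoters of 500 bp and 2 kb, 92.1% with TSSs of any gene type and, chosen after seeing the data, 87.3% from the centre. The share with a replicate 1 peak was 93.3% in the longer replicate 2 list, 96.3% with the longer replicate 1 list, 76.0% with as many of the tallest replicate 1 peaks as replicate 2 has, 37.2% with at least 50% covered and, chosen after seeing the data, 76.2% at the middle 150 bp; without replicate 2 it has no value. Footprints per kb were 10.2 at 500 bp, 9.64 at 800 bp, 9.41 with joining within 100 bp and 8.29 in the longer list, and 10.1 with replicate 1 footprints. No paired analysis was possible because there is 1 group. With 1 library behind the members, values carry no replicate error, and a stretch without a replicate 1 peak may be below the threshold there.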
